A study of Mus musculus with 36 samples.

Results

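The 7 angiogenic ligands and receptors Vegfa, Flt1, Kdr, Nrp1, Tek, Angpt1 and Angpt2 were followed through the salivary gland data as a list of named genes. They were chosen by name and were 7 of the 31102 genes in the count tables. Submandibular glands, a pair of large salivary glands, were profiled by Drop-seq, which counts RNA molecules as unique molecular identifiers (UMIs) in single cells captured in droplets. The 26 glands were from 12 control and 14 double-mutant C57BL/6 mice of both sexes, with 6 controls and 7 double mutants at postnatal day 40 (P40) and the same numbers at P90. Controls, also labelled wildtype, carried K14-Cre and a Cre-inducible R26 EYFP reporter, and double mutants carried these together with a beta-catenin gain-of-function allele and Bmpr1a loss-of-function. K14 is a promoter of basal epithelial cells, and Cre driven by it limits recombination of the alleles to cells of that lineage. Dissociated living cells were sorted and fixed in methanol. A further 4 glands at P70, 2 of each genotype, were profiled by CITE-seq, which reads RNA and surface tags in the same cells, and 2 whole glands, a control at P70 and a double mutant at P100, by bulk mRNA-seq. The CITE-seq double mutants and both bulk glands were labelled female, and the CITE-seq controls were labelled a male and a female.

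VEGF-A is the main growth signal of endothelial cells, the cells that line blood vessels, and it is secreted by surrounding epithelial and stromal cells. It binds the receptor tyrosine kinases VEGFR1, encoded by Flt1, which acts largely as a decoy, and VEGFR2, encoded by Kdr, which carries most of the signal, with neuropilin 1, encoded by Nrp1, as a co-receptor that also binds semaphorins. Tek encodes Tie2, the endothelial receptor of the angiopoietins. Angiopoietin 1, classically made by the cells around vessels, activates Tie2 and steadies vessels, and angiopoietin 2, made mainly by activated endothelial cells, acts against it in most settings.

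In the mm10 genome the members lay on separate loci. Vegfa was annotated at chr17:46016993-46032377 on the minus strand, Flt1 at chr5:147561604-147726011 and Kdr at chr5:75932827-75978458, both on the minus strand, Nrp1 at chr8:128359073-128505462 and Tek at chr4:94739289-94874976, both on the plus strand, and Angpt1 at chr15:42424727-42676977 and Angpt2 at chr8:18690263-18741562, both on the minus strand. RefSeq promoters, each running from 250 bases before to 50 bases after the start, were found for 5 of the 7 members. The promoters of Flt1, Kdr and Nrp1 are shown because these 3 receptors differed together between the genotypes below. They are given 5′ to 3′ on the strand of the gene (GRCm38.p6), at chr5:147725962-147726261, chr5:75978406-75978705 and chr8:128358823-128359122. Capitals mark the letters GGAAG on either strand, a form of the GGAA core that ETS factors of the endothelium read. GGAA followed by other letters was not marked or counted.
Flt1: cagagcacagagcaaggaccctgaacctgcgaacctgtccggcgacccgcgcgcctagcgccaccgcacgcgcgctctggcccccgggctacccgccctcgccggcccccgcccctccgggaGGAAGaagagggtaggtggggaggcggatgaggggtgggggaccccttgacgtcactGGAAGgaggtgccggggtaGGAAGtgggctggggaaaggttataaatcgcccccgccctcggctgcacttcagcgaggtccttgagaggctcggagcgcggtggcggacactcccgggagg
Kdr: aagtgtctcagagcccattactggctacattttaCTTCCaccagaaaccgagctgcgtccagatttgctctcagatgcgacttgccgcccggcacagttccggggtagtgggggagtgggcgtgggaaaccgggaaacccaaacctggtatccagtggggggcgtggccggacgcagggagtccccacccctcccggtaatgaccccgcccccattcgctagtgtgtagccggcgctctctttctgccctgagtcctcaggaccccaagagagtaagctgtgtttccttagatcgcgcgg
Nrp1: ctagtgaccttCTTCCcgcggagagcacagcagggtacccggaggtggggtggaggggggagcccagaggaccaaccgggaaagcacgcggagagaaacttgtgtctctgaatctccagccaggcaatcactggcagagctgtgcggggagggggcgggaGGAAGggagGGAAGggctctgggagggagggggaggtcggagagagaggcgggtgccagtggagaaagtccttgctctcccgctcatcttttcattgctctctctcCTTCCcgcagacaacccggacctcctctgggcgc
GGAAG stood 3 times in the Flt1 window, 4 times in the Nrp1 window, once in that of Kdr and not in that of Tek. The letters were common: 71.4% of 32851 promoters of the same length held them, 16.5% held at least 3 and 6.04% at least 4. ACGTG, a form of the core read by hypoxia-inducible factors, was searched on both strands. It stood only in the second of the 2 Vegfa windows (chr17:46025114-46025413), against 19.6% of all promoters. The other form, GCGTG, was not searched. TATAAA stood in the Flt1 window alone, against 13.6% of all promoters.

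After cells with few genes or much mitochondrial RNA were dropped, 23346 of 26987 Drop-seq barcodes were left, 10743 of them from controls. The median depth was 2892 UMIs per cell in control P40, 1341 in control P90, 1570 in double-mutant P40 and 766.5 in double-mutant P90 glands, so depth per cell differed between the groups. The Xist and Y-linked UMIs of 2 libraries, double-mutant P40 replicate 1 and double-mutant P90 replicate 5, went against their sex labels, and all 4 CITE-seq libraries held both kinds. Both Drop-seq libraries were from batch 11. The P40 gland, labelled male, had 708 Xist and 1 Y-linked UMIs, and the P90 gland, labelled female, 1 and 225. Whether these samples were exchanged, which would also exchange their stages, was not tested. Among kept cells, 14 barcodes occurred in more than 1 Drop-seq library. Of the targeted genes, Bmpr1a was 17.2 ± 6.07 CPM (UMIs of a gene scaled to a fixed total) in controls and 24.3 ± 11.3 in double mutants (SD, n = 12 and 14) and Ctnnb1 54.5 ± 31.8 and 112 ± 66.4 CPM, neither was called (edgeR log2 fold changes -0.19 and 0.35, adjusted p = 0.224 and 0.166), and tags at the 3′ end need not read the altered exons. The 1012 endothelial-like cells, found with the 7 members held out of the clustering, carried 12 endothelial markers in 4.05% to 73.7% of cells, against at most 1.55% of all other cells.

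Vegfa had its highest levels in ducts. It gave 2688 UMIs, and its level, in CPM over the cells of a type in a gland with at least 10 such cells, was highest in Egf+ ductal-like cells, the granular duct cells that store epidermal growth factor, with 322 ± 182 CPM (SD, n = 13 glands). These cells held 32.8% of all Vegfa UMIs, 46.9% in controls and 14.3% in double mutants, where Klk1+ ductal-like cells held 16.3% and acinar-like cells 15.9%. The mean over glands was 21.4% ± 27.2 (SD, n = 26). At least 1 Vegfa UMI was found in 45.4% of Egf+ cells (95% Clopper-Pearson interval 42.5% to 48.3%, counting error only). Duoxa2+ ductal-like cells stood next at 294 CPM, from 2 glands at 104 and 484 CPM. Klk1+ ductal-like cells followed with 119 ± 70.1 CPM (SD, n = 26) and ductal progenitor-like cells with 109 ± 46.6 CPM (SD, n = 23), and both gave UMIs in nearly all glands. The Klk1+ and progenitor levels were not told apart (mean difference 21.5 CPM within 23 glands, adjusted p = 0.297, sign-flip permutation test over 19 neighboring pairs of types, two-sided). When types seen in fewer than 3 glands were left out, a choice made after the values were seen, Egf+ cells exceeded Klk1+ cells of the same gland in 13 of 13 glands (322 against 154 CPM, adjusted p = 0.00128, permutation test by exact sign flips).

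Other cells carried less Vegfa RNA per UMI. T/NK-like cells had 105 CPM, basal-like cells 104, fibroblast-like cells 94.5, Rgs5-led pericyte and smooth muscle-like cells 90.4, immune-like cells 51.2 and endothelial-like cells 29.4. Of the 1589 basal-like cells, 1045 lay in a cluster that passed 6 basal and 8 myoepithelial markers. No cluster was named myoepithelial, so basal-like levels here and below may include such cells. Acinar-like cells, which make the watery saliva and form the largest class with 7514 cells, had 13.02 ± 9.01 CPM (SD, n = 26) and held 14.9% of all Vegfa UMIs. Within the immune-like class, an Mmp12-led cluster of 318 cells, with Lyz2, Gpnmb and Spp1 among its top genes, had 238 CPM (exact Poisson interval 183 to 304), and the other cluster of 2293 cells had 30.1 CPM (23.4 to 38.1). The Mmp12-led cluster was found mostly in double mutants, with 298 cells against 20 in controls, and no test was made between clusters.

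The VEGF receptors were read mainly in endothelial-like cells. Flt1 stood at 2009 ± 1102 CPM in endothelial-like cells (SD, n = 22 glands), from 301 to 4142 CPM, and these cells, 1012 of 23346, held 90.5% of its 2211 UMIs. It was detected in 69.6% of endothelial-like cells (66.6% to 72.4%) at a median of 723 UMIs per cell, against 0.559% of acinar-like cells at a median of 3776 UMIs, which is taken as background from free RNA. Basal-like cells were next with 26.4 CPM, and the endothelial level was above the basal level of the same gland in 21 of 21 glands (adjusted p = 0.00019, sign-flip permutation test, the smallest p that 100000 resamples allow before adjustment). Kdr was likewise highest in these cells. Its level was 918 ± 489 CPM in endothelial-like cells (SD, n = 22), which held 90.1% of its 1068 UMIs, with 50.4% of them detected against 0.306% of acinar-like cells. Fibroblast-like cells came next at 27.0 CPM and lay below the endothelial cells in 14 of 14 glands (adjusted p = 0.000773, sign-flip permutation test).

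Nrp1 was shared with stroma and immune cells. Endothelial-like cells were highest with 1349 ± 700 CPM (SD, n = 22) and 61.2% of its 2446 UMIs, followed by fibroblast-like cells with 531 ± 271 CPM (n = 14), Rgs5-led cells with 220 ± 225 CPM (n = 7 glands) and immune-like cells with 177 ± 79.4 CPM (n = 24). The immune-like cells held 19.4% of its UMIs and the fibroblast-like cells 10.3%. The endothelial level was above the fibroblast level in 11 of 14 glands (adjusted p = 0.0104, sign-flip permutation test), and with at least 20 cells per gland and type asked for, which left 8 glands, the difference was 1037 CPM against 837 CPM before, 7 of 8 glands were higher and the call was lost (adjusted p = 0.0703, exact sign-flip permutation). Fibroblast-like and Rgs5-led cells were not told apart (mean difference 326 CPM within 6 glands, exact sign-flip permutation adjusted p = 0.297), nor did Rgs5-led and immune-like cells (50.04 CPM within 7 glands, adjusted p = 1, exact sign-flip permutation). In acinar-like cells 0.705% of cells had an Nrp1 UMI, which was likewise taken as background.

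Angpt1 was read in ductal, basal and Rgs5-led cells, with 384 UMIs in all. Duoxa2+ ductal-like cells had 156 CPM in 2 glands, Rgs5-led cells 121 ± 117 CPM (SD, n = 7 glands), basal-like cells 36.2 CPM, luminal Clu+ cells 36.0 CPM and Klk1+ ductal-like cells 33.6 CPM. Klk1+ cells held the largest share of Angpt1 UMIs, 31.5%, and Rgs5-led cells 4.95%, since only 180 Rgs5-led cells were kept. The Rgs5-led level was above the basal level in 5 of 7 glands and the difference of 97.0 CPM did not pass (adjusted p = 0.382, exact sign-flip permutation). Angpt1 UMIs were seen in 8.33% of Rgs5-led cells (4.74% to 13.4%) and 0.16% of acinar-like cells. Of the 2 basal-like clusters, the smaller, Krt14 and Krt15 among its top genes, had 63.3 CPM (45.6 to 85.6) and the larger, Sostdc1-led, 22.4 CPM (14.2 to 33.6). The larger was the cluster that passed more myoepithelial than basal markers.

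Angpt2 was at the limit of detection. It gave 19 UMIs in 10 of 26 glands, 6 of them in endothelial-like, 5 in fibroblast-like and 2 in Rgs5-led cells, and no order between types can be read from them. Tek, the receptor of both angiopoietins, gave 200 UMIs, 90.5% of them in endothelial-like cells, at 180 ± 131 CPM (SD, n = 22). It was detected in 14.03% of endothelial-like cells (11.9% to 16.3%) and in 0.0932% of acinar-like cells. The next type, fibroblast-like at 15.6 CPM from 3 UMIs, was below the endothelial cells in 14 of 14 glands (adjusted p = 0.000773, sign-flip permutation test).

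**Figure D1:**
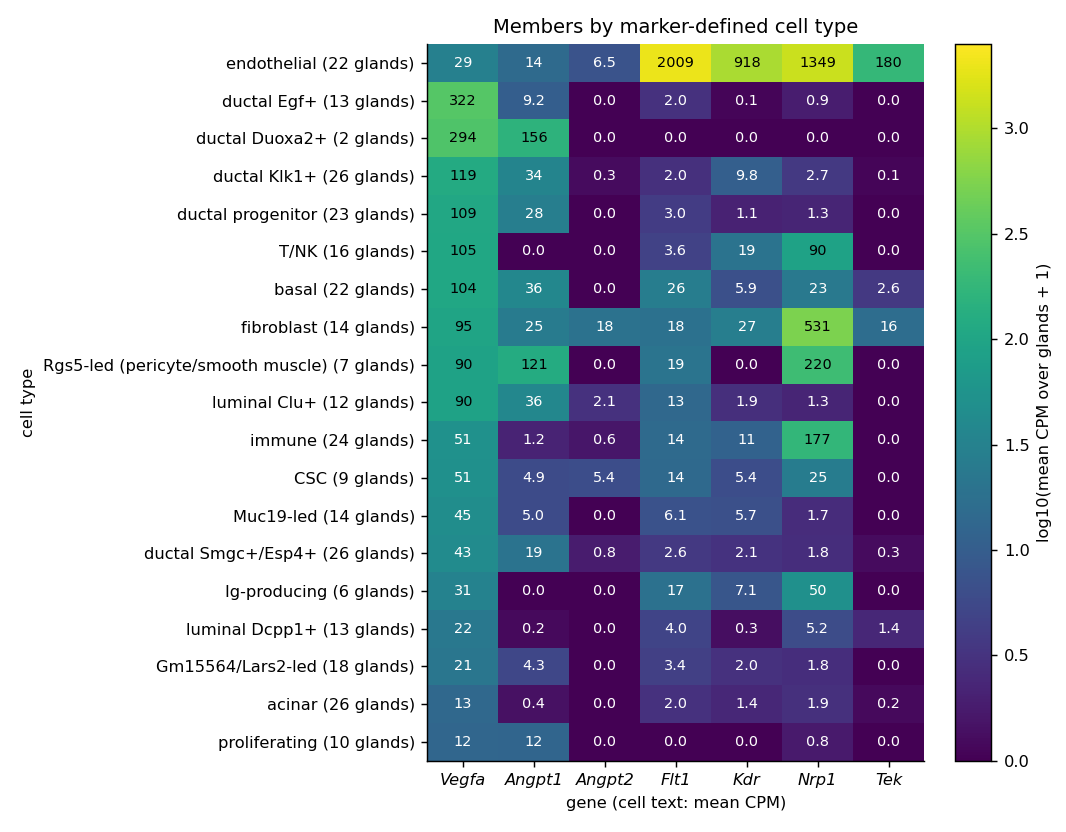
Mean CPM over glands with at least 10 cells of a type (rows, with the number of glands) for each member (columns), written in the cell and colored on a log10 scale. Types are named from marker genes, or by leading genes, and CSC are cells named from Wnt-type cancer stem cell markers. Flt1, Kdr and Tek are bright in the endothelial row alone (2009, 918 and 180 CPM), Nrp1 also in fibroblast (531), Rgs5-led and immune cells, and Vegfa in the ductal rows (322 in Egf+ cells).

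Endothelial-like cells fell into 8 sub-clusters, again found without the members. Flt1 was at 3015 CPM in a Sema3g-led sub-cluster of 336 cells, which passed 3 arterial and 4 capillary markers, at 3059 CPM in capillary endothelial-like cells (292 cells) and at 2300 CPM in venous endothelial-like cells (65 cells). Kdr and Nrp1 had their lowest pooled levels of these in the venous cells. Kdr had 1427, 1749 and 528 CPM, and Nrp1 2319, 2407 and 1131 CPM, in the same order, and the exact Poisson intervals of the venous cells (Kdr 351 to 763, Nrp1 863 to 1456) lay below those of both others. These intervals cover counting error in cells pooled over glands, and no test between sub-clusters was made. Tek had 284, 239 and 415 CPM, and its venous interval of 260 to 628 overlapped those of the others. A sub-cluster led by the secretory genes Mup4 and Dcpp3 (113 cells, median 3078 UMIs) had lower levels of all 4 receptors, with Flt1 at 214 CPM. The other 4 unnamed sub-clusters were led by Klk1 and the granular duct genes Klk1b16 and Ren1 (76 cells, Flt1 at 604 CPM), by Gm13009 (62 cells, 1739 CPM), by Gm15564 and Lars2 (48 cells, 3548 CPM) and by Ccl4, Cd74 and C1qb, genes of immune cells (20 cells, 1289 CPM). No sub-cluster was named lymphatic, and all 1012 cells enter the shares and tests below unless stated.

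Of the 1012 endothelial-like cells, 133 had no UMI of Flt1, Kdr, Nrp1 or Tek, and 57 had UMIs of all 4. Flt1 and Kdr were read together in 417 cells, and Kdr was found in 59.2% of cells with Flt1 and 30.2% of those without. Cells with both were deeper, with a median of 890 UMIs against 565 in cells with neither, so depth moved with this count and its part was not tested. Over the 17 marker-defined types, pooled over glands, log2(CPM + 1) of Flt1 and Kdr had a Pearson r of 0.94, Kdr and Nrp1 of 0.91, Kdr and Tek of 0.87, and Vegfa and Kdr of -0.05, all as a description over types that share libraries. The 5 genes most like Kdr were the endothelial genes Pecam1 (r = 0.96), Cd300lg, Flt1, Plvap and Myct1, and those most like Tek were Aqp1 (0.95), Clec14a, Rbp7, Myct1 and Egfl7. Most like Flt1 were Kdr, Pecam1, Clic5, Cd300lg and Sdpr, and most like Nrp1 were Vim (0.94), Dpysl2, Fabp4, Cep170 and Syne1, of which Vim marks stroma and endothelium. For Vegfa these were 2410002F23Rik (0.96), Sec11a, Nudt4, Pi4k2a and Alkbh5, and for Angpt1 Mgst3 (0.92), Gm15720, Ptprk and Ppp2r3a. The list for Angpt2, led by Cygb (0.94) and Prrx1, rested on 19 UMIs.

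The receptors were higher in double-mutant glands when all kept cells of a gland were summed. Flt1 ranged in controls from 1.42 over a median of 10.8 to 54.2 CPM (n = 12) and in double mutants from 9.81 over 59.1 to 286 CPM (n = 14). Of the 14 double-mutant glands, 8 lay above every control and 13 above the control median, and the groups overlapped. The fitted difference, after TMM scaling with sex and stage in the model, was a log2 fold change of 1.47 (SE 0.42, edgeR quasi-likelihood test, adjusted p = 0.0161). Kdr ranged from 0.317 over 4.32 to 30.5 CPM in controls and from 5.60 over 26.5 to 174 CPM in double mutants. All 14 double mutants were above the control median and 6 above every control, with a log2 fold change of 1.57 (SE 0.44, edgeR adjusted p = 0.0147). Nrp1 ranged from 3.17 over 16.0 to 67.2 CPM in controls and from 18.2 over 60.6 to 232 CPM in double mutants, again with all 14 above the control median and 6 above every control (log2 fold change 1.36, SE 0.36, edgeR adjusted p = 0.0106).

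Tek, Vegfa and Angpt1 did not pass. Tek was 2.10 ± 2.28 CPM in controls (SD, n = 12) and 8.22 ± 10.2 CPM in double mutants (n = 14), with all 14 double mutants above the control median (log2 fold change 1.14, SE 0.50, edgeR adjusted p = 0.0965). It was called without control P40 replicate 2 (log2 fold change 1.55, edgeR adjusted p = 0.0284) and was 0.61 without double-mutant P40 replicate 5, the gland with the most Tek (edgeR adjusted p = 0.333). Vegfa ranged from 9.21 over 35.9 to 126 CPM in controls and from 15.9 over 45.9 to 89.6 CPM in double mutants. No double mutant lay above every control and 3 controls lay above every double mutant, and its fitted log2 fold change was -0.54 (SE 0.23, edgeR adjusted p = 0.0893), while the unscaled medians ran the other way. Angpt1 was 6.34 ± 6.81 CPM in controls and 7.34 ± 3.56 CPM in double mutants, with 12 of 14 double mutants above the control median. The fit gave the opposite sign (log2 fold change -0.20, SE 0.28, edgeR adjusted p = 0.629), which turned with batch in the model (0.06). Angpt2 was too low to test. Thus 3 of the 6 tested members were called, all higher, where 22% of the 10488 genes tested were called and 14.4% were called higher.

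**Figure D2:**
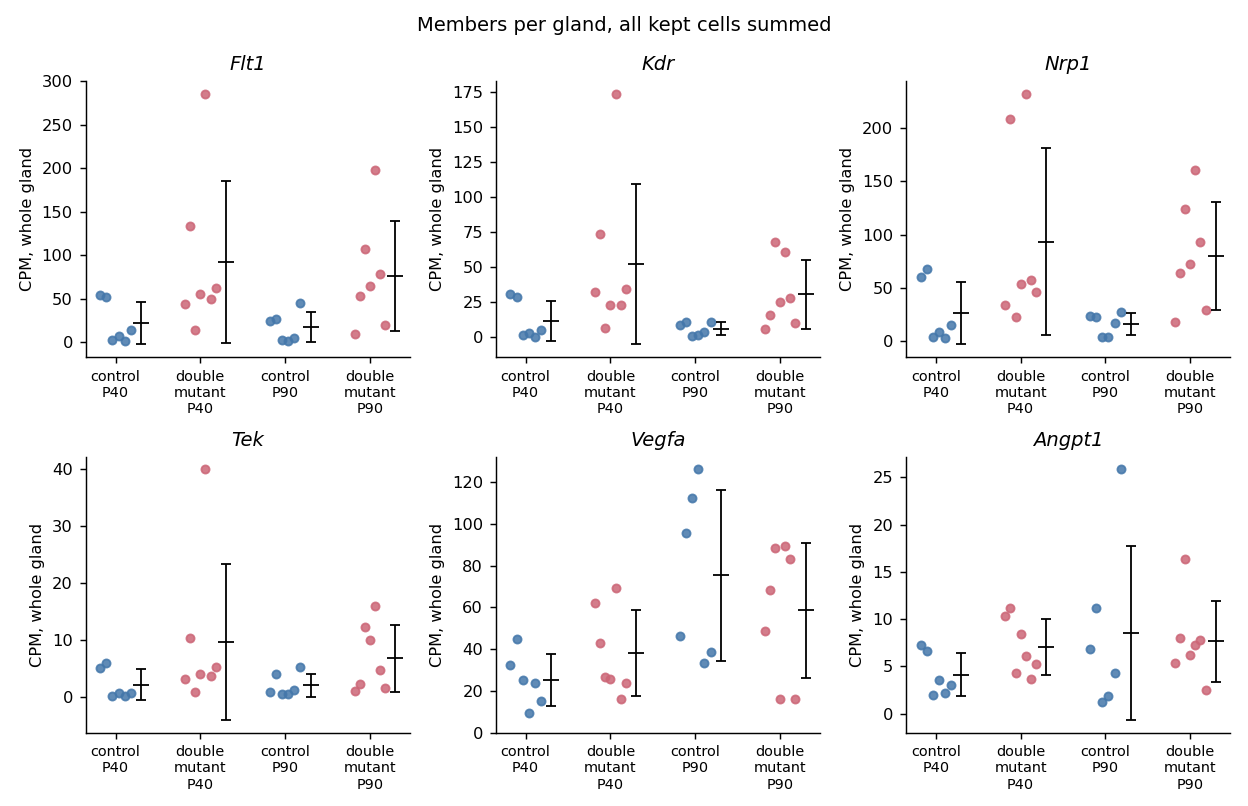
CPM of 6 members in each gland (points), summed over kept cells, by genotype and stage, with the mean and SD beside each group. Flt1, Kdr and Nrp1 reach 286, 174 and 232 CPM in double mutants and at most 54.2, 30.5 and 67.2 CPM in controls, and the Vegfa values of the genotypes overlap.

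In such sums, more cells of a type and more RNA per cell cannot be told apart. Endothelial-like cells made up 2.84% ± 2.61 of kept cells in controls (SD, n = 12, 0.312% to 8.25%) and 5.79% ± 3.39 in double mutants (n = 14, 2.06% to 15.3%), a ratio of 2.04 (permutation test, two-sided, p = 0.0171, adjusted p = 0.0256 over 3 types). The difference also passed with labels permuted within batches (adjusted p = 0.0277, permutation test). Chosen after the data were seen, a test without double-mutant P40 replicate 5, the gland with the highest share, passed too (adjusted p = 0.0436, permutation test). For cells called by at least 2 endothelial markers, p was 0.0374 (permutation test). Only endothelial-like cells were tested in that setting, so this value was not adjusted over 3 types. Fibroblast-like cells, which also carry Nrp1, went from 0.649% to 2.71% (permutation adjusted p = 0.00012), and Rgs5-led cells from 0.585% to 1.01% (permutation adjusted p = 0.181). With the log2 endothelial share as a covariate, the receptor differences shrank to log2 fold changes of 0.39 for Flt1, 0.48 for Kdr and 0.47 for Nrp1 (edgeR adjusted p = 0.407, 0.338 and 0.298), and that of Tek became -0.06.

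Batches, as named in the titles, were not even over the groups. Both genotypes occurred in 5 of them, and Flt1 and Nrp1 were higher in double mutants in 5 of 5, Kdr, Tek and Angpt1 in 4 of 5 and Vegfa in 3 of 5. These were mean CPM of 1 to 3 glands per genotype, without TMM scaling, and sex and stage were not matched within batches. The share of all genes that were higher in as many batches was not counted. The size varied: Flt1 differed by 115 CPM in batch 13 (118 against 3.29) and by 13.8 CPM in batch 12 (66.9 against 53.1), where the endothelial share was lower in double mutants (4.82% against 7.64%). With batch as a covariate, the log2 fold changes were 1.897 for Flt1, 2.02 for Kdr and 1.65 for Nrp1, with edgeR adjusted p = 0.0562, 0.0562 and 0.0514, and 309 genes in all were called in place of 2308.

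**Figure D3:**
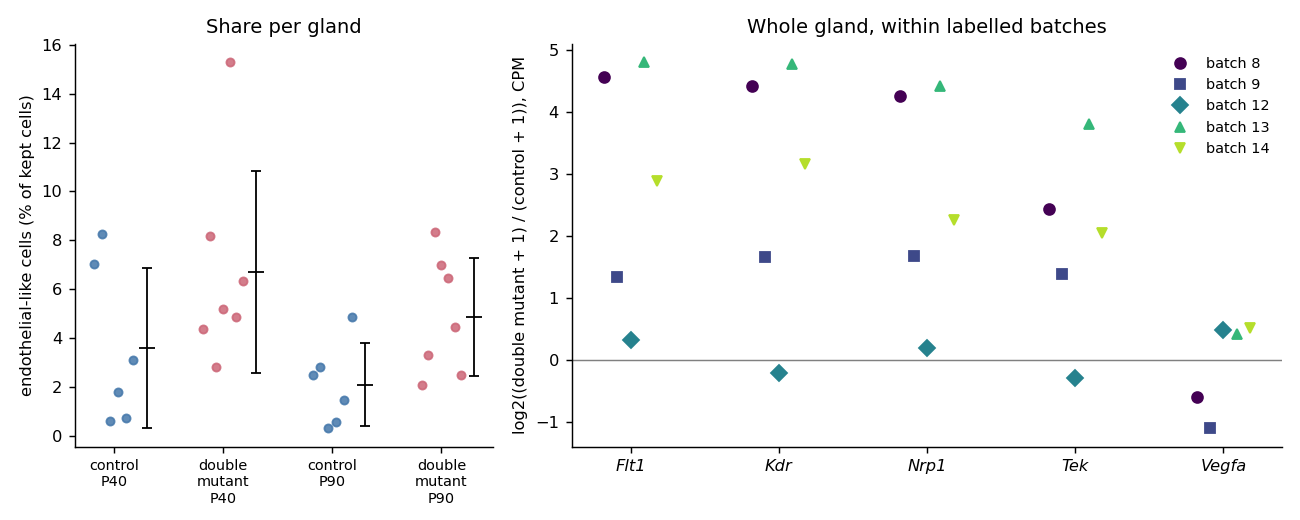
Left, endothelial-like cells as a percent of kept cells in each gland (points), with the mean and SD. Right, log2 ratio of mean CPM + 1, double mutant over control, within each of the 5 batches that hold both genotypes. Receptor ratios lie above 0 except for Kdr and Tek in batch 12, and Vegfa lies on both sides.

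Within endothelial-like cells, no member was called. In the 22 glands with at least 10 such cells, Flt1 was 1543 ± 916 CPM in controls (SD, n = 8) and 2276 ± 1140 CPM in double mutants (n = 14), a log2 fold change of 0.53 (SE 0.25, edgeR adjusted p = 0.454). Kdr was 695 ± 393 against 1045 ± 504 CPM (0.54, SE 0.24, edgeR adjusted p = 0.419), Nrp1 1115 ± 504 against 1482 ± 776 CPM (0.31, SE 0.24, edgeR adjusted p = 0.65) and Tek 150 ± 161 against 197 ± 114 CPM (0.43, SE 0.35, edgeR adjusted p = 0.661). The genotypes overlapped for each receptor, with 4 of 14 double mutants above every control for Flt1 and Nrp1, 3 for Kdr and none for Tek. Only 0.0945% of the 1058 genes tested, 1 gene, was called in this comparison, and 113 had an unadjusted p under 0.05, Flt1 and Kdr among them. At P40 Flt1 was 975.1 ± 551 CPM in controls (SD, n = 4 glands) and 2054 ± 1029 CPM in double mutants (n = 7), with 5 of 7 above every control, and its log2 fold change of 0.65 was not called (SE 0.31, edgeR adjusted p = 0.723, background 0.0864%). At P90 no receptor was called either (log2 fold changes 0.45, 0.33 and 0.42 for Flt1, Kdr and Nrp1, edgeR adjusted p from 0.801 to 0.827, background 0.402%), and the interaction called 0% of 1237 genes. Vegfa, Angpt1 and Angpt2 were too low in these cells to test. The genotypes were unevenly mixed over the sub-clusters. The Klk1-led sub-cluster, with Flt1 at 604 CPM, held 59 control and 17 double-mutant cells. The Mup4-led sub-cluster, at 214 CPM, held 45 and 68, and the Gm15564- and Lars2-led, at 3548 CPM, 1 and 47. The Sema3g-led sub-cluster, at 3015 CPM, held 74 and 262. A genotype fit on the Sema3g-led, capillary and venous sub-clusters alone, chosen after the data were seen, called 4 of 521 genes over 19 glands. The part of the mix itself in the receptor levels was not tested.

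**Figure D4:**
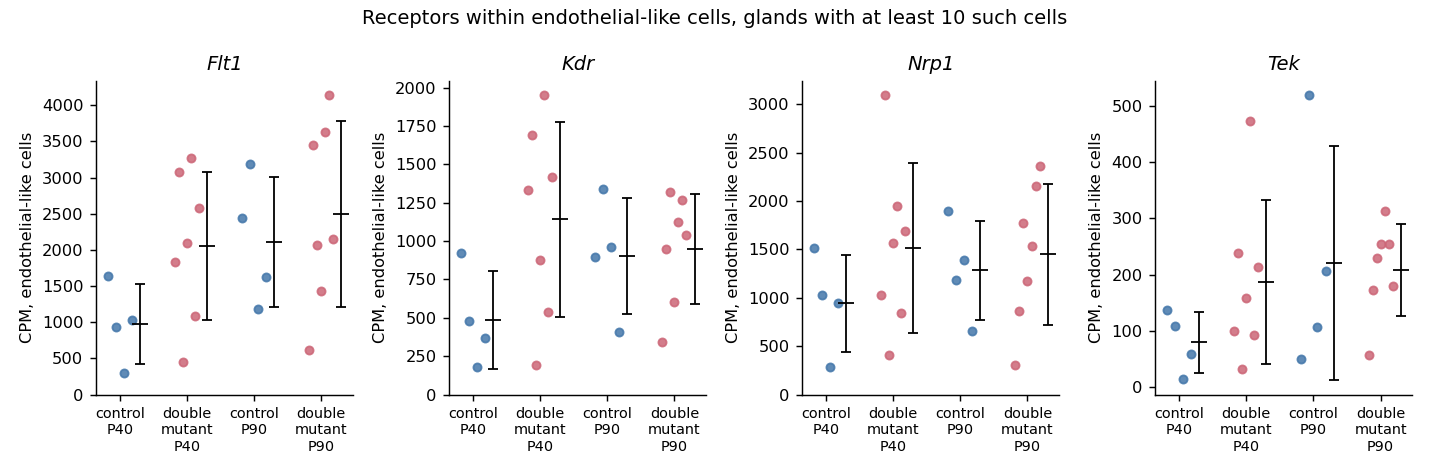
CPM of the 4 receptors within endothelial-like cells, per gland with at least 10 such cells (points), with the mean and SD beside each group. The groups overlap for all 4 genes, and the P40 controls (Flt1 975.1 ± 551 CPM) are the lowest group.

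At P90, Flt1, Kdr and Nrp1 were called. Flt1 rose from a control median of 14.9 (1.901 to 44.8) to 64.8 CPM (9.81 to 198) in double mutants, Kdr from 6.24 (0.595 to 10.9) to 24.9 (5.60 to 68.2) and Nrp1 from 19.9 (3.801 to 27.0) to 72.3 CPM (18.2 to 160). Of 7 double mutants, 6 lay above every control for Nrp1 and 5 for Flt1 and Kdr. The log2 fold changes were 1.76 for Flt1 (SE 0.46, edgeR adjusted p = 0.0433), 1.77 for Kdr (SE 0.39, edgeR adjusted p = 0.0185) and 1.69 for Nrp1 (SE 0.36, edgeR adjusted p = 0.0169), 3 of 5 members tested, where 4.9% of 9094 genes were called and 3.56% called higher. Without double-mutant P90 replicate 5, whose RNA went against its sex label, the Flt1 call was lost (edgeR adjusted p = 0.0898). At P40, Flt1 had medians of 10.8 (1.42 to 54.2) and 55.2 CPM (14.3 to 286), and no member was called (log2 fold changes 1.36, 1.45, 1.10 and 1.31 for Flt1, Kdr, Nrp1 and Tek, edgeR adjusted p from 0.205 to 0.289, background 0.255% of 10213 genes). Without a filter on low counts Flt1, Kdr and Nrp1 passed at P40 as well (edgeR adjusted p = 7.32e-05, 1.37e-05 and 0.00364). In that setting 1657 of 26435 genes were called, against 26 of 10213 with the filter. The difference between the stages' genotype effects was not called for any member (edgeR interaction, adjusted p from 0.904 to 0.998, 0.00876% of 11420 genes called).

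In controls, Vegfa was higher at P90. It was 25.1 ± 12.5 CPM at P40 (SD, n = 6, 9.21 to 44.7) and 75.4 ± 41.0 CPM at P90 (n = 6, 33.2 to 126), and the groups overlapped slightly. The log2 fold change was 1.35 (SE 0.33, edgeR adjusted p = 0.0149), 1 of 6 members tested, where 10.9% of 9099 genes were called and 9.25% called higher. Control batches did not overlap between the stages, and in controls a batch effect cannot be told apart from one of stage. In glands with at least 10 of them, 254 Egf+ ductal-like cells were kept from 3 control P40 glands and 726 from 6 control P90 glands, at 235 ± 60.4 and 273 ± 110 CPM of Vegfa, and the part of their number in the difference was not tested. In double mutants Vegfa was 38.1 ± 20.6 CPM at P40 and 58.7 ± 32.3 at P90 (log2 fold change 0.43, edgeR adjusted p = 0.87), and edgeR called 0 of 9857 genes there, with 586 at an unadjusted p under 0.05 and 3 called by DESeq2. Vegfa was also 60.4 ± 33.8 CPM in males (n = 12) and 39.7 ± 30.1 CPM in females (n = 14), a log2 difference of 0.98 that edgeR did not call (SE 0.23, edgeR adjusted p = 0.0575, 0.362% of genes called) and DESeq2 did (adjusted p = 0.00673). These groups follow the sex labels, and without the 2 libraries whose RNA went against them the difference was 0.91 (edgeR adjusted p = 0.0985). Egf+ cells were kept in numbers of at least 10 from 10 male glands (1012 cells) and 3 female glands (129 cells).

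Within single types, the genotype comparison of Vegfa was called in none of the 5 types tested. The log2 fold changes were 0.21 in acinar-like, -0.21 in basal-like, -0.24 in Klk1+ and -0.28 in Egf+ ductal-like cells, with edgeR adjusted p from 0.757 to 0.871, where 2.36%, 8.02%, 0.554% and 0.279% of the genes tested in those types were called. For Egf+ cells the plain means ran the other way, 260 ± 93.9 CPM in 9 control and 461 ± 267 CPM in 4 double-mutant glands, and sex and stage were uneven over them. In immune-like cells Vegfa was 21.2 ± 22.6 CPM in controls (SD, n = 10) and 72.6 ± 62.0 CPM in double mutants (n = 14), a log2 fold change of 1.16 (SE 0.61, edgeR adjusted p = 0.25), where 10.3% of 1756 genes were called. The Mmp12-led cluster, with 298 of its 318 cells from double mutants, belongs to this class. Nrp1 in immune-like cells had a log2 fold change of 0.02 (SE 0.22, edgeR adjusted p = 0.981).

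Other genes of the pathway, listed with earlier results known, were counted over the whole gland. Of 59 genes in 9 lists, 42 were tested and 20 were higher and 0 lower in double mutants, with a median log2 fold change of 1.01 against 0.02 over all genes, where 22% of all genes were called and 14.4% called higher. The list of other VEGF receptors and co-receptors, which also held genes that are not VEGF receptors, gave 4 of 4 higher. Among them were Nrp2, a co-receptor of lymphatic and stromal cells (log2 fold change 2.70, edgeR adjusted p = 0.00113), and Plxnd1, a semaphorin receptor (2.46, edgeR adjusted p = 0.00242). Cdh5, the junction protein VE-cadherin (1.695, edgeR adjusted p = 0.0229), was also among the markers used to name endothelial-like cells. Tie1, the partner of Tek, was higher (1.91, edgeR adjusted p = 0.0207). Of 6 tested Notch and ephrin genes 3 were higher, Jag2 (1.48), Jag1 (1.14) and Notch1 (0.87), and of 3 PDGF genes 2, Pdgfra (2.37), a fibroblast receptor, and Pdgfb (1.81), the ligand that draws mural cells to vessels. Endothelial BMP and TGF-beta receptors gave 2 of 4, Tgfbr2 (1.38) and Eng (1.30), and angiogenesis inhibitors 4 of 5, led by Sema3f (2.82), Serpinf1 (2.25) and Thbs1 (1.19). Of 13 hypoxia response genes 4 were higher, Epas1 (1.42), Ndrg1 (1.16) and P4ha1 (1.11) among them, with a list median of 0.12. None of 2 other VEGF ligands and 4 apelin and adrenomedullin genes was called. At P90, where 4.9% of all genes were called and 3.56% called higher, 5 of 35 tested genes were higher and 1 lower, Adm, which encodes adrenomedullin (-1.61, SE 0.43, edgeR adjusted p = 0.0456), and within endothelial-like cells 0 of 18 were called (median 0.53 against 0.02 over all genes).

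In the CITE-seq glands, Kdr had 7.43 and 1.81 CPM in the 2 controls and 24.5 and 43.3 CPM in the 2 double mutants (log2 fold change 2.17, SE 0.56, edgeR adjusted p = 0.0403). Nrp1 had 34.9 and 23.1 CPM in controls and 103 and 152 CPM in double mutants (1.41, SE 0.31, edgeR adjusted p = 0.0252). Both double mutants were above both controls for these receptors, and the share of all genes separated in this way was not counted. The double mutants were labelled female and the controls a male and a female, and sex was not in this fit. The paper added a low amount of human HEK cells to these samples as a spike-in, and no step here removed human cells. Whether the counts used still held such cells was not tested. Flt1 had 17.2 and 4.08 against 33.6 and 52.2 CPM and was not called (1.32, SE 0.55, edgeR adjusted p = 0.139). Its log2 fold change was 2.56 and called without control replicate 1 (edgeR adjusted p = 0.021) and 0.58 without control replicate 2 (edgeR adjusted p = 0.499). Vegfa had 31.5 and 18.1 against 19.97 and 35.8 CPM (-0.57, edgeR adjusted p = 0.346). Thus 2 of 4 tested members were called, where 13.7% of 10058 genes were called and 9.24% called higher. The calls of Kdr and Nrp1 were lost without double-mutant replicate 1, double-mutant replicate 2 or control replicate 2 (edgeR adjusted p from 0.0651 to 0.144, with the lone gland taken to vary like the others). Endothelial-like cells were 3.87% and 1.51% of control and 4.39% and 5.43% of double-mutant cells. Only 26.5% to 47.5% of Nrp1 UMIs were endothelial there, and of 25 Tek UMIs 13 were endothelial and 12 were in fibroblast-like cells (68.1 CPM). Of the Vegfa UMIs, acinar-like cells held 33.3% and Egf+ ductal-like cells, at 412 CPM, 19.9%. The 5 hemoglobin genes, markers of red blood cells, were all higher in these double mutants (median log2 fold change 6.04), and their part was not tested.

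In the bulk libraries, 1 per genotype with 34515744 and 34729551 assigned counts, all 7 members were lower in the double mutant. Vegfa went from 1531 (exact Poisson interval 1455 to 1610) to 804 (749 to 862), a log2 ratio of -0.94. Flt1 went from 349 to 246 (-0.51), Kdr from 271 to 228 (-0.26), Nrp1 from 396 to 367 (-0.12) and Tek from 104 to 81 (-0.37). The counting intervals of Kdr, Nrp1 and Tek reached 0. Angpt1 went from 120 to 82 (-0.56) and Angpt2 from 27 to 17 (-0.68, interval -1.64 to 0.25). The median of all 15265 genes with at least 10 counts was -0.31, and relative to it Kdr and Nrp1 were higher and the other 5 lower. Past 1.5-fold lower were Vegfa and Angpt2, alongside 27.8% of all genes, and 10.1% of genes were 1.5-fold higher. Of 12 endothelial markers 1 was higher, with a median of -0.35. Per exon length, Vegfa was the highest member with 9.07 and 4.80 TPM, counts scaled by length and total, in the control and the double mutant, ahead of Nrp1 (1.704 and 1.59), Kdr (0.763 and 0.647), Angpt1 (0.717 and 0.494), Flt1 (0.657 and 0.467), Tek (0.561 and 0.441) and Angpt2 (0.186 and 0.118). The receptor ratios were below 0 here and above 0 in the single-cell sums. Without replicates no test was possible, the libraries differed in stage (P70 and P100) as well as genotype, and the whole tissue was not dissociated or sorted.

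**Figure D5:**
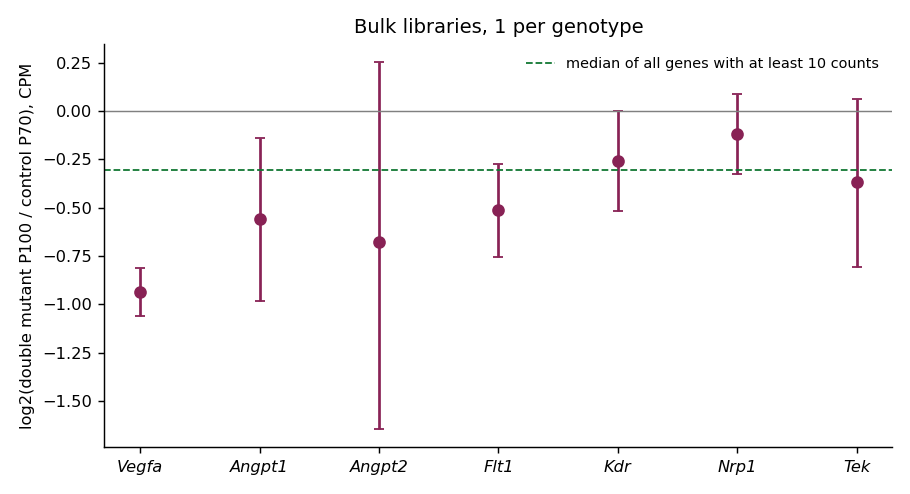
Log2 ratio of CPM, double mutant at P100 over control at P70, for the 7 members, with intervals from exact Poisson counting error only. All 7 points lie below 0, from -0.94 for Vegfa to -0.12 for Nrp1, and the dashed line marks the median of all genes at -0.31.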

How the data were processed

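Drop-seq and CITE-seq tables hold UMI counts per gene and cell that the authors deposited, made with Drop-seq tools and STAR on mm10; bulk tables hold read counts per gene deposited by the authors from featureCounts 1.6.0. Groups came from the sample labels. Cells with at least 100 genes and under 15% mitochondrial UMIs were kept (CITE-seq, also under 2500 genes), giving 650301 to 6994504 UMIs per Drop-seq gland. Scrublet marked 0.574% of cells as doublets, which were kept. Cells were clustered (scanpy 1.11.5, leidenalg 0.10.2, resolution 1) with the members and pathway genes held out, and named from fixed markers, of which at least 3 had to pass. UMIs summed per gland were tested with edgeR 4.0.16 (quasi-likelihood, TMM, filterByExpr, Benjamini-Hochberg over all genes, threshold 0.05). Sex and stage were covariates in Drop-seq, and the CITE-seq fit had genotype alone. DESeq2 1.42.0 was an alternative. Shares of cells and levels between types were tested by two-sided permutation with up to 100000 resamples. Named were the members, up to 3 called genes per pathway list and direction, and the 5 genes most correlated with each member, of which 1 is not reported here. Members and lists were chosen with earlier results of these data known. On simulated data the whole-gland test recovered 86.9% of 2-fold changes, the endothelial test 85.4% and the CITE-seq test 1.12%. The simulated counts had the same fixed dispersion for all genes, no batch effect and changes only in genes with higher counts. Recovery in the real glands, which vary otherwise, was not measured. Labels name single glands as samples, so p-values measure the spread between glands. Intervals cover counting error only.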

Additional observations from a re-analysis of the deposited data

Results flagged for a closer look

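Of 44 groups of values examined for a sample far from the others, 4 held one, and chance gives about 1 in 20. Double-mutant P40 replicate 5 stood apart in 3 of them. Its Kdr level in the whole gland was 174 CPM, with the next gland of its group at 73.3, and its Tek level was 39.98 CPM, with the next at 10.4. Its endothelial-like cells were 15.3% of kept cells, with the next gland at 8.17%, and it was the library with the fewest kept UMIs (650301). Without it, Flt1, Kdr and Nrp1 stayed called in the whole gland, at log2 fold changes of 1.15, 1.21 and 1.15. In double-mutant P90 replicate 3, Angpt1 was 16.4 CPM, with the next gland of its group at 7.97.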

How the results depend on the processing

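Of the values of single members under other settings, with no single gland left out, 351 kept direction and side of the threshold, 10 lost and 10 gained a call and 6 turned sign. Flt1, Kdr and Nrp1 stayed called in the whole gland with any single gland left out (log2 fold changes 1.15 to 2.004), and lost the call with batch or endothelial share in the model; the cause was not tested. The 2308 genes called in the whole gland became 309 with batch as covariate, 144 with endothelial share as covariate, 1042 with totals thinned, and 1663 to 3331 with a gland left out. Same-numbered glands did not vary together (median r 0.05 over 37 pairs), so the replicate number was no pairing. With a replicate block 3359 genes were called in the whole gland, 467 at P40 (26 without), 994 at P90 (446 without), 27, 3 and 0 in endothelial-like cells over both stages, at P40 and at P90 (1, 1 and 2 without) and 1863 in CITE-seq. Without the filter on low counts the calls were 1657 at P40, 1430 at P90, 189 for the interaction, 232 and 2235 for stage in double mutants and controls, 37, 15, 21 and 15 for endothelial-like cells (both stages, P40, P90, interaction), 2356 in CITE-seq, and 1 member call in other types. DESeq2 called 681 at P40, 996 at P90, 8 for the interaction, 3 for stage in double mutants, 66 for sex, 12 in endothelial-like cells and 644 in CITE-seq. Without the 2 libraries against their sex label the calls were 15, 235, 0 and 66 for P40, P90, interaction and sex. In endothelial-like cells the count was 0 with batch, without those libraries, with at least 20 cells or with marker-called cells, 2 when thinned, 4 in the named sub-clusters (chosen after seeing the data), and 0 to 11 with a gland left out. CITE-seq gave 380 to 1050 with a gland left out. Signs turned for Angpt1 (0.0556 with batch, -0.313 to 0.0624 with a gland left out, the highest without control P90 replicate 6, -0.0390 at P40 and 0.10 for stage in double mutants without those libraries), Tek (-0.0587 with endothelial share, 0.0079 for control stage with the block) and the Flt1 interaction (-0.0025). Cells thinned to 500 UMIs had Vegfa in 12.6% of Egf+ cells, and Flt1, Kdr, Nrp1 and Tek in 54.4%, 39.1%, 46.4% and 8.86% of endothelial-like cells. Leaving out lymphatic sub-clusters was not run, since none was named. Depth limits Angpt2, with 19 UMIs, and Tek, with 200.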

Other observations

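In the CITE-seq glands, Angpt2 was read in 3 of 4 libraries with 1 or 2 UMIs each, and none lay in endothelial-like cells. Angpt1 had 5.45 and 2.98 CPM in the double mutants and 1.72 and 3.63 CPM in the controls, and no member UMIs of Vegfa, Angpt1 or Angpt2 fell in the endothelial-like cells there. Within these cells Flt1 had 1836 and 1064 CPM in controls and 2623 and 2821 CPM in double mutants, and Kdr 816 and 399 against 1702 and 2479 CPM, from 26, 11, 28 and 27 cells. No test was made on these sums. Of the pathway lists, 8 of 36 genes tested in CITE-seq were called, all higher, where 13.7% of all genes were called and 9.24% called higher, led by Calcrl, which encodes an adrenomedullin receptor (log2 fold change 3.92, edgeR adjusted p = 0.0204), and Thbs2, an angiogenesis inhibitor (2.67, edgeR adjusted p = 0.0267). In Drop-seq, Vegfb, another ligand of VEGFR1, was higher at P90 than at P40 in controls (log2 fold change 1.002, edgeR adjusted p = 0.0472). It was 1 of 31 pathway genes tested there (3.23%), against 10.9% of all genes called, and stage cannot be told apart from batch in controls.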
